A study of Homo sapiens with 16 samples.

Results

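The H19 and IGF2 imprinted locus was examined as every deposited region on chromosome 11 that overlapped positions 1990000 to 2180000 of the human genome build hg19, in tables for 7 chromatin targets. This gave 380 regions out of 1255311 in all the tables. H19 was taken as chr11:2016400-2019100, its control region as chr11:2019100-2025000 and IGF2 as chr11:2150300-2170900, and each region was assigned to the interval it overlapped most. The stretch before H19 is called the MRPL23 side, the stretch from the control region to IGF2 the intervening stretch, and the stretch past IGF2 the INS side, after the neighbouring genes in RefSeq. The study compared HCT116, a human colorectal carcinoma cell line, with DKO, known as a derivative of it that carries disrupted copies of DNMT1 and DNMT3B, which encode DNA methyltransferases. Both lines were untreated as far as the labels say, and the labels give DKO by name only. DKO is known as a line made by gene targeting, so loss of methylation and other differences between a derived line and its parent cannot be told apart here. There was 1 chromatin immunoprecipitation library per line and target, so the values below have no replicates and the lines were not compared by a test. The targets were CTCF, RAD21 and SMC1 of the cohesin complex, acetylation of histone H3 at lysine 27 (H3K27Ac), and RNA polymerase II as a whole (TotalRNAPol2) or with phosphate on serine 5 (Pol2Ser5) or on serine 2 (Pol2Ser2) of its tail. For TotalRNAPol2 the title names total polymerase and the antibody label names Pol2Ser5, and the title was followed. Neither the disruption of the 2 genes nor epithelial marker genes could be checked, because gene positions of hg19 were not used here.

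H19 makes a long noncoding RNA that is the source of the microRNA miR-675, and IGF2 encodes insulin-like growth factor 2, a secreted growth factor. In most tissues H19 is read from the maternal copy and IGF2 from the paternal copy. On the maternal copy the control region is unmethylated and bound by CTCF, a zinc-finger protein that blocks enhancers beyond H19 from reaching IGF2. On the paternal copy methylation of the control region keeps CTCF away. Cohesin, the ring complex of RAD21, SMC1 and other subunits, halts on chromatin where CTCF is bound and holds loops together. Acetylation of lysine 27 marks active promoters and enhancers, serine 5 phosphorylation marks polymerase near the start of a gene, and serine 2 phosphorylation marks polymerase that is elongating. The files do not separate the parental copies, so each value below is a sum over both.

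Sequences were taken from RefSeq (GRCh38.p14), not from the samples. The first below is the promoter of the H19 form with the start that RefSeq lists, chr11:2001217-2001516 on the minus strand of that build, from 250 bases before to 50 after the RefSeq start. It is shown because CG pairs, in capitals, are the bases that DNA methyltransferases act on and because polymerase and acetylation were measured over this gene.

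H19 promoter: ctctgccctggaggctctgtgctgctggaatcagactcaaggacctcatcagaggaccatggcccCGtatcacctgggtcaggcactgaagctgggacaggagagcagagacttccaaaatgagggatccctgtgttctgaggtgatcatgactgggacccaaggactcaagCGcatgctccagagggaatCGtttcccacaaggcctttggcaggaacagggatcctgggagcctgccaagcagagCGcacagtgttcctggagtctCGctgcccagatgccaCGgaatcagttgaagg

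The 300 bases held 6 CG pairs, against a median of 14 in 35116 promoters of the same length, and 33.7% of those promoters held fewer. RefSeq gives H19 a length of 6091 bases, more than the interval used for the gene here, so by length alone this start may lie beyond that interval, on the side of the control region; positions were not converted between the builds. The other pair of sequences is the microRNA made from H19, shown because it is the best-known product of the gene; capitals mark the seed, bases 2 to 8, by which a microRNA recognises its targets.

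hsa-miR-675-5p: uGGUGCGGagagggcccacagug
hsa-miR-675-3p: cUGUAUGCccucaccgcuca

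The seeds of the arms differed. IGF2 and MIR483, a microRNA gene within it, are named only.

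CTCF and both cohesin subunits were higher over the control region in DKO than in HCT116, each by slightly more than 2-fold in the deposited values. Values are the authors' normalized read densities, in reads per kb around the summit of a region, and M is the log2 ratio of DKO over HCT116, so that M of 1 is 2-fold. Each target had 1 region there, of about the size of the whole control region. For CTCF, at chr11:2019113-2025117, the density was 1075 in DKO, from 1001 reads, and 458 in HCT116, from 491 reads. M was 1.23, with a 95% counting interval of 1.07 to 1.39. RAD21, the cleavable subunit that closes the ring, had a density of 750.4 in DKO and 366 in HCT116 at chr11:2019131-2025067. Its reads numbered 735 and 372, and M was 1.04 (interval 0.86 to 1.22). SMC1, which forms an arm of the ring, had a density of 571 in DKO and 238 in HCT116 at chr11:2019149-2024852, from 647 and 209 reads. Its M was 1.26 (interval 1.04 to 1.5). The counting windows were 1 kb around each summit, and the summits lay at 2021584 for CTCF, 2021168 for RAD21 and 2019714 for SMC1, so the CTCF and RAD21 windows overlapped in part and the SMC1 window met neither. The 2-fold call rested on the scaling for CTCF and RAD21: with a constant in place of the authors' line between the libraries M was 1.00 for CTCF, 0.69 for RAD21 and 1.30 for SMC1, and less the median of all regions of the table it was 0.97, 0.90 and 1.10.

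The control region was among the strongest CTCF and cohesin sites of DKO and ranked lower in HCT116. By density, its CTCF region ranked 61 of 171693 in DKO and 3333 in HCT116. For RAD21 the ranks were 63 and 2311 of 180061, and for SMC1 they were 8 and 1940 of 159358. Among regions called in both lines, 95.9% had a lower M for CTCF, 95.4% for RAD21 and 99.0% for SMC1. Within the locus the order of the strong sites differed between the lines. In HCT116 the CTCF density of the control region was below both regions of the INS side, which stood at 626 and 480.1, and in DKO it was above both, which stood at 768 and 649. RAD21 had its highest density of the locus in HCT116, 630.4, in the intervening stretch at chr11:2056594-2060934, and in DKO that region stood at 619.7, below the control region. SMC1 showed the same order there, with 387 in HCT116 and 356 in DKO at chr11:2056706-2060474.

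Those other strong sites differed less between the lines. On the INS side, at chr11:2169162-2174715, M of CTCF was 0.29 (interval 0.14 to 0.45), and at chr11:2174851-2180424 it was 0.44 (interval 0.26 to 0.61). RAD21 had 606 in DKO and 544 in HCT116 at the first place and 313 and 405 at the second, with M of 0.16 (interval -0.01 to 0.33) and -0.37 (interval -0.59 to -0.15). SMC1 had 289 and 269 at the first and 179 and 211 at the second, and its M was 0.10 (interval -0.14 to 0.35) and -0.24 (interval -0.53 to 0.06). None of these 3 targets passed 2-fold on the INS side, where CTCF had 2 regions, RAD21 3 and SMC1 6. Towards DKO 20.1%, 13.7% and 9.36% of their tables did, and towards HCT116 6.33%, 8.7% and 4.67%. With so few regions nothing is read from that absence. At the strong cohesin region of the intervening stretch M was -0.02 for RAD21 and -0.12 for SMC1. CTCF there, at chr11:2056572-2060316, had densities of 151 and 61.1 and an M of 1.31 (interval 0.88 to 1.78), but its summit lay at 2059866, against 2058316 for RAD21, so its window did not cover the cohesin summit.

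**Figure D1:**
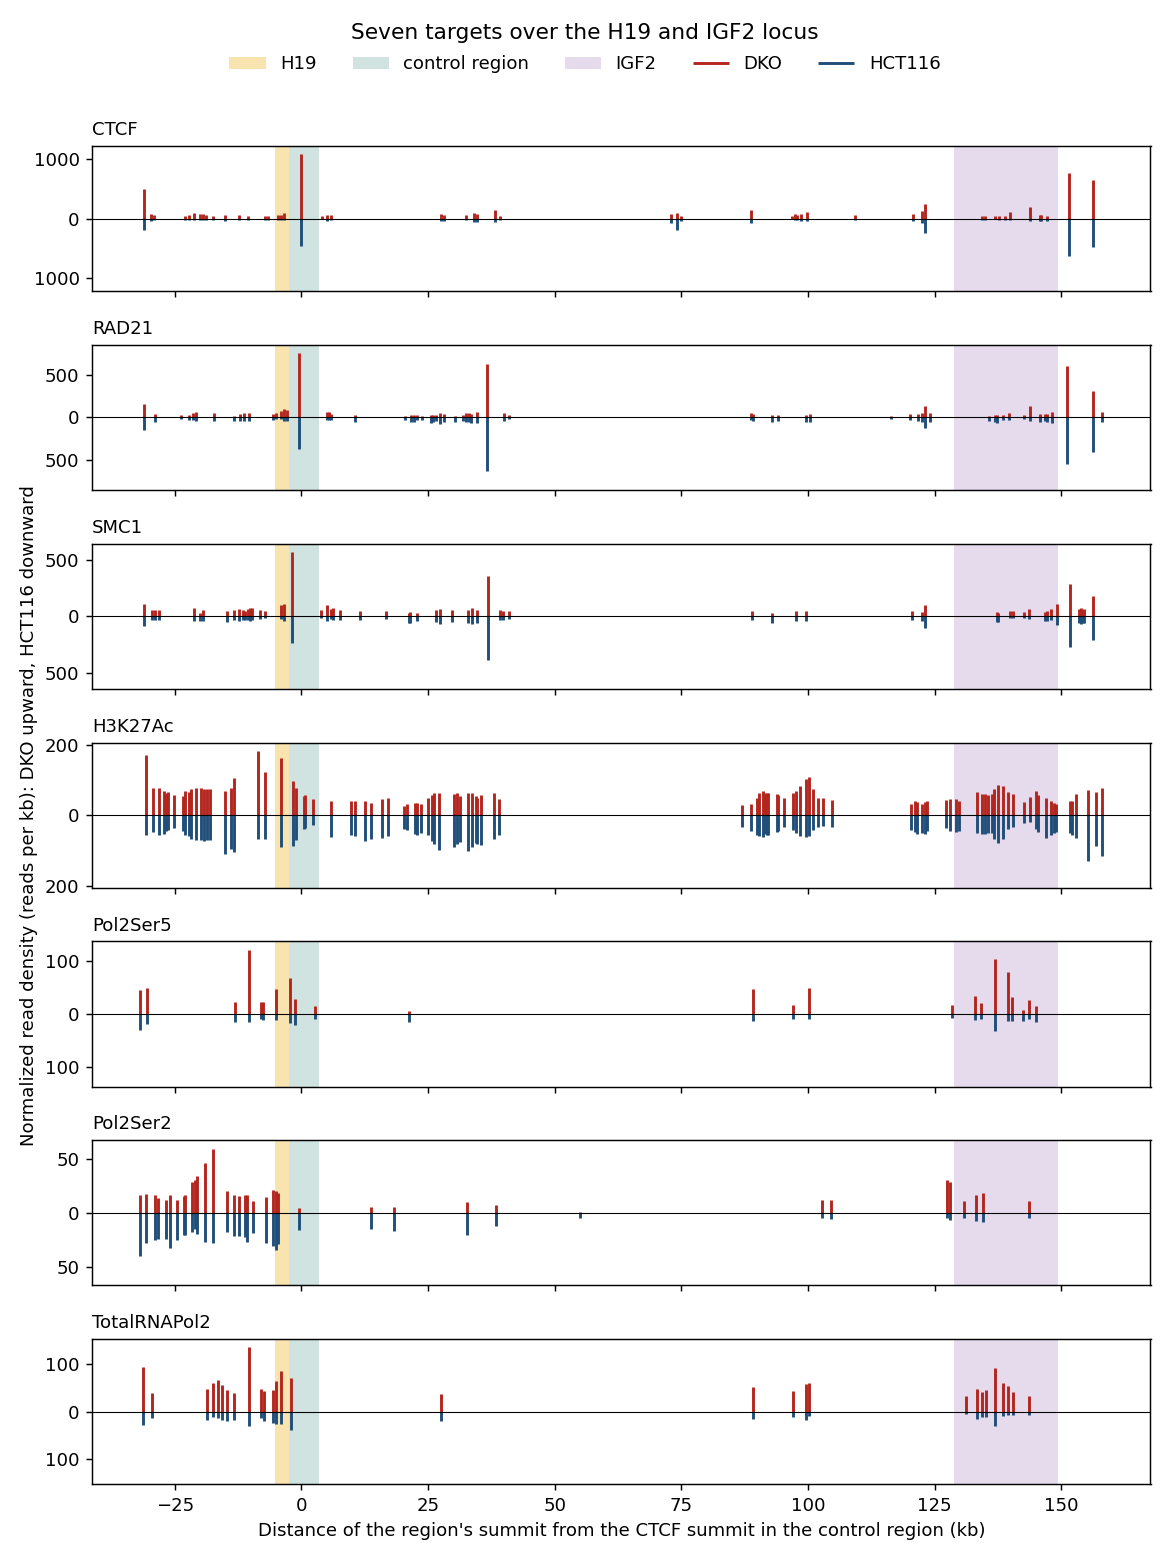
Normalized read density of every region of the locus (reads per kb, vertical, DKO drawn upward and HCT116 downward, 1 library each) against the distance of its summit from the CTCF summit in the control region (kb, horizontal), with 1 panel per target and its own scale. At 0 kb CTCF stands at 1075 in DKO and 458 in HCT116, while the cohesin peak 36.7 kb away stands at 619.7 in DKO and 630.4 in HCT116 for RAD21.

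None of the acetylation and polymerase regions assigned to the control region passed 2-fold towards DKO, but the polymerase regions were few. Pol2Ser5 had 2, Pol2Ser2 1 and TotalRNAPol2 1, and 14.9%, 18.6% and 20.7% of their tables passed 2-fold towards DKO. For polymerase nothing is read from that absence. All 5 H3K27Ac regions had M above 0, from 0.09 to 0.71, where 53.3% of the table was below 0. None of the 5 reached 2-fold, which 11% of the table did towards DKO. The leading one by mean density, chr11:2019203-2020243, had 96.1 in DKO and 86.2 in HCT116, with an M of 0.16 (interval -0.15 to 0.46). Pol2Ser5 had M of 0.47 (interval -0.14 to 1.16) and 0.80 (interval -0.06 to 1.90) at its 2 regions. A further Pol2Ser5 region, described under H19 because most of it lay there, had its summit just inside the control region and an M of 2.00. TotalRNAPol2, next to the H19 boundary at chr11:2019138-2020762, had 71.0 in DKO and 38.6 in HCT116, with an M of 0.88 (interval 0.47 to 1.33). Pol2Ser2 was the exception in direction, with a weak region at chr11:2021013-2021454 of 4.81 in DKO and 15.6 in HCT116. It rested on 6 and 42 reads, and M was -1.70 (interval -3.42 to -0.65).

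Over H19 itself, CTCF, cohesin, acetylation, Pol2Ser5 and TotalRNAPol2 were all higher in DKO, and Pol2Ser2 was lower. Pol2Ser5 had 1 region assigned to the gene, chr11:2016919-2019990, which was called in DKO only. It ran past the gene's start, and its summit at 2019263 lay in the control region, with 837 bases of the counting window in H19 and 1163 in the control region. Its density was 67.8 in DKO and 17.0 in HCT116, from 176 and 25 reads, and M was 2.00 (interval 1.44 to 2.71). The Pol2Ser5 region whose summit did lie in H19, chr11:2015797-2016760, was mostly outside the gene past its end and had 46.3 in DKO and 12.3 in HCT116. Its reads numbered 119 and 18, and M was 1.91 (interval 1.25 to 2.78). TotalRNAPol2 stood at 85.7 and 25.9 at chr11:2016783-2018987, from 196 and 44 reads, with an M of 1.73 (interval 1.27 to 2.26). A second TotalRNAPol2 region nearer the gene's end, chr11:2016423-2016707, had 64.5 and 25.9 and an M of 1.32 (interval 0.85 to 1.86). H3K27Ac covered the gene with 1 region called in both lines, chr11:2016374-2018972. Its density was 162 in DKO and 90.7 in HCT116, from 306 and 190 reads, and M was 0.83 (interval 0.57 to 1.11), so acetylation was higher in DKO by less than 2-fold. Pol2Ser2 had 2 weak regions towards the gene's end, both called in HCT116 only. At chr11:2016448-2016630 the density was 20.0 in DKO and 34.1 in HCT116, from 34 and 77 reads, with an M of -0.77 (interval -1.42 to -0.19), and at chr11:2016849-2017018 it was 18.7 and 29.2 with an M of -0.64 (interval -1.33 to -0.03). The serine 2 form and the other polymerase forms thus lay on opposite sides of 0 over H19.

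CTCF over H19 was weak in HCT116 and called in DKO only, at 3 regions, all past 2-fold against 20.1% of its table. A call in DKO only is not independent of M, and the share among regions so called was not computed. The densities of the 3 CTCF regions in DKO were 52.6, 66.7 and 92.1, and in HCT116 23.4, 19.2 and 22.1, in order from the gene's end to its start. M was 1.17, 1.80 and 2.06, the last with an interval of 1.41 to 2.89 from 96 and 20 reads. RAD21 had 4 regions over the gene, all past 2-fold against 13.7% of its table, with M from 1.05 to 1.88. SMC1 had 2, with M of 1.88 (98.6 in DKO and 26.8 in HCT116) and 1.37 (113 and 43.6). The CTCF and cohesin densities over the gene were well under those of the adjoining control region in both lines.

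**Figure D2:**
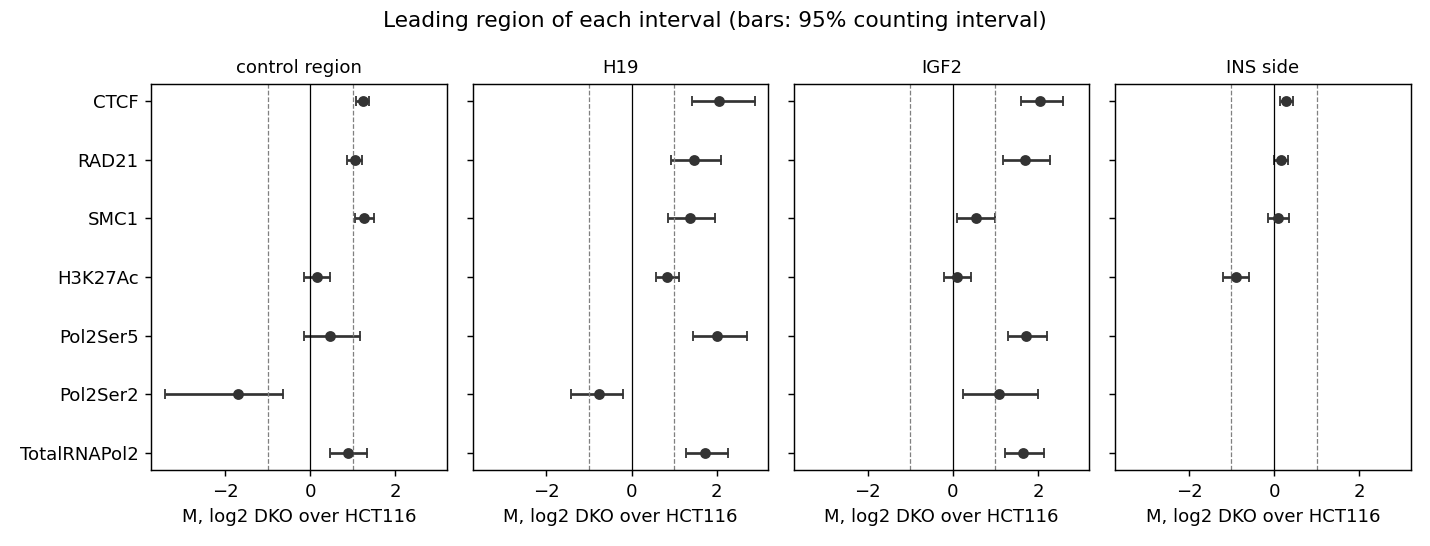
M (log2 DKO over HCT116, horizontal) of the region with the highest mean log2 density in each interval, for 7 targets (rows), with 95% counting intervals as bars and dashed lines at 2-fold. Over H19 Pol2Ser5, with its summit just inside the control region, stands at 2.00 and Pol2Ser2 at -0.77, and on the INS side H3K27Ac stands at -0.89; no polymerase region was called there.

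Over IGF2 polymerase was higher in DKO across the gene, while acetylation differed little at its strongest regions. TotalRNAPol2 had 9 regions, all called in DKO only and all past 2-fold towards DKO, against 20.7% of its table, with M from 1.61 to 2.96. A call in DKO only is not independent of M, and the share among regions so called was not computed. The median M over the 9 regions was 2.25, or 1.53 with a constant in place of the authors' line between the libraries. With that constant all 9 still passed 2-fold, against 19605 of 162247 in the table. The strongest, chr11:2157193-2159285, had 91.7 in DKO and 29.2 in HCT116, from 213 and 49 reads, with an M of 1.65 (interval 1.22 to 2.15). At chr11:2160923-2161459 the density was 54.5 and 7.01, from 108 and 13 reads, and M was 2.96. Pol2Ser5 passed 2-fold towards DKO at 6 of 8 regions, against 14.9% of its table. Its strongest, chr11:2157567-2160746, was called in both lines with 104 in DKO and 31.6 in HCT116, from 273 and 47 reads, and M was 1.72 (interval 1.29 to 2.22). At the next, chr11:2160851-2161613, it was 79.4 and 13.0, with an M of 2.61 (interval 1.99 to 3.44). Both Pol2Ser5 regions with M below 0 were called in HCT116 only, with M of -0.94 and -0.03.

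Pol2Ser2 over IGF2 was weak and its ratio leaned on the authors' scaling. All 4 regions were called in DKO only and past 2-fold, against 18.6% of the table, with M from 1.09 to 1.18, and the leading one, chr11:2155943-2156257, had 18.1 in DKO and 8.49 in HCT116. The reads behind it numbered 27 and 21, and M was 1.09 (interval 0.23 to 2.00). With a constant in place of the authors' line between the libraries, the median over the 4 regions was 0.62 instead of 1.15. Then 0 of the 4 passed 2-fold towards DKO, against 28083 of 236942 in the table. Less the median of all regions 2 did, against 34531. The highest Pol2Ser2 ratios of the locus lay just past the end of IGF2. There chr11:2148796-2149357 had 30.1 in DKO and 4.59 in HCT116, from 45 and 11 reads, with an M of 2.71 (interval 1.83 to 3.90), and chr11:2149480-2149965 had 28.6 and 6.68, with an M of 2.10 (interval 1.30 to 3.08).

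H3K27Ac over IGF2 had 20 regions, of which 14 had M above 0 and 6 below, where 53.3% of the table was below 0. Of the 20 regions 1 passed 2-fold towards DKO, against 11% of the table. The strongest, chr11:2158676-2159372, had 86.8 in DKO and 80.3 in HCT116, with an M of 0.11 (interval -0.21 to 0.43), at the place where Pol2Ser5 was 3.29-fold and TotalRNAPol2 3.14-fold higher in DKO. In the middle of the gene, from 2160902 to 2166585, all 5 regions had M of 0.73 or more. The one past 2-fold, chr11:2165330-2165853, was called in DKO only, and its higher density lay below the table's median. It had 51.0 in DKO and 18.2 in HCT116, from 92 and 39 reads, with an M of 1.49 (interval 0.95 to 2.09). Towards the INS side the sign turned, and the 4 regions from 2167893 to 2170926 had M from -0.39 to -0.61. The 6 regions of the INS side continued this, all with M below 0, against 53.3% of the table. The lowest, chr11:2174752-2177623, had 70.0 in DKO and 129.6 in HCT116, with an M of -0.89 (interval -1.21 to -0.59).

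CTCF had M above 0 at all 10 regions over IGF2, where 37.0% of its table was below 0. It passed 2-fold at 5 of them, against 20.1% of its table. At chr11:2160905-2162586 the density was 114 in DKO and 14.8 in HCT116, from 120 and 13 reads, with an M of 2.95 (interval 2.22 to 3.99). At chr11:2164636-2165956, called in both lines, it was 191 and 45.9, with an M of 2.06 (interval 1.61 to 2.59). RAD21 at the latter place had 136 and 42.2, with an M of 1.69 (interval 1.19 to 2.28), and SMC1 had 65.6 and 24.5, with an M of 1.42 (interval 0.75 to 2.25). That place also held the acetylation region past 2-fold. Nearer the strongest polymerase region, at chr11:2158688-2159357, RAD21 was lower in DKO, at 29.6 against 62.1, with an M of -1.07 (interval -1.76 to -0.43). SMC1 had M of -0.65 and -0.73 at its 2 regions there, while CTCF, at chr11:2159002-2159337, had 47.6 and 19.3 and an M of 1.30. CTCF and cohesin therefore had opposite signs at this place. RAD21 as a whole was not higher over IGF2: of its 11 regions 1 passed 2-fold towards DKO, against 13.7% of its table, and 1 towards HCT116, against 8.7%, and the median M was -0.16, or 0.06 with constant centring. SMC1 had 10 regions over the gene, of which 4 passed 2-fold towards DKO, against 9.36% of its table, with M from 1.42 to 1.57, and its leading region, chr11:2170019-2170969, had 112 and 77.4 with an M of 0.54 (interval 0.11 to 1.00).

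**Figure D3:**
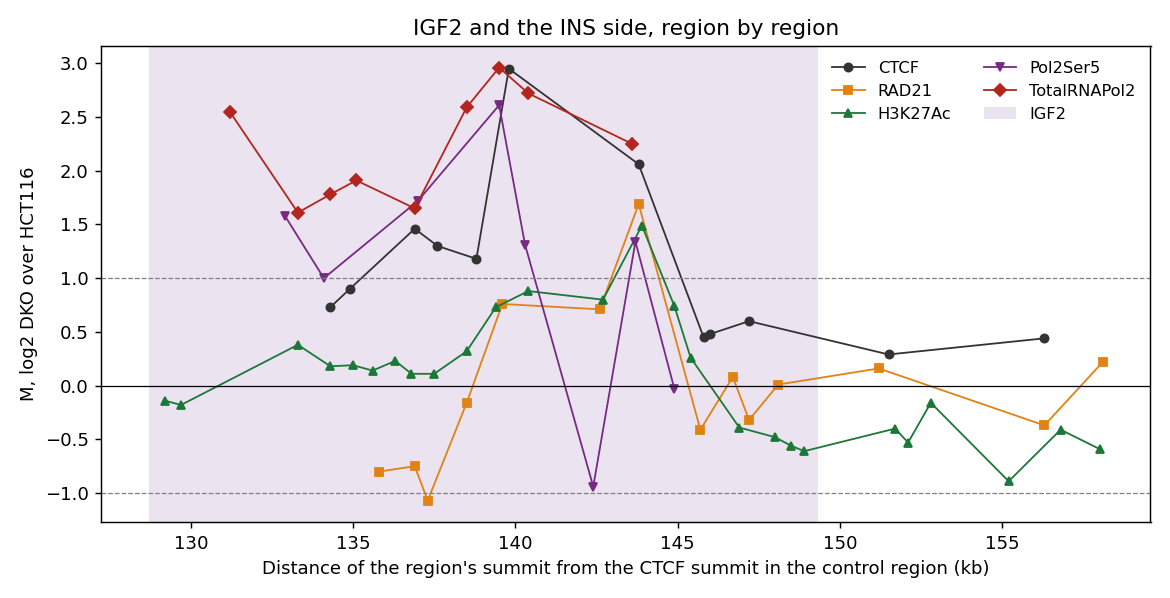
M (log2 DKO over HCT116, vertical) of each region over IGF2 (shaded) and the INS side, against the distance of its summit from the CTCF summit in the control region (kb, horizontal), for 5 targets; lines join the regions of 1 target and dashed lines mark 2-fold. CTCF, Pol2Ser5 and TotalRNAPol2 reach 2.95, 2.61 and 2.96 at 139.8, 139.5 and 139.5 kb, where the neighbouring H3K27Ac regions have 0.73 and 0.88.

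A larger share of the locus than of the whole table was at least 2-fold higher in DKO for CTCF, SMC1, Pol2Ser5, TotalRNAPol2 and, in the deposited scaling, Pol2Ser2, and not for RAD21 or H3K27Ac. Neighbouring regions often share a counting window, in the locus from 56.5% of Pol2Ser5 regions to 98.1% of H3K27Ac regions, so regions are not independent. In DKO 32 of 54 CTCF regions were higher by 2-fold or more, against 20.1% of the table, and in HCT116 0 were, against 6.33%; no test lies behind that 0. Less the median of all regions of the table, 20 of the 54 were higher in DKO and 1 in HCT116. In the whole table so scaled, 23831 and 18123 of 171693 were. The median M was 1.14 in the locus and 0.26 in the table, and 17 CTCF regions were called in both lines, 37 in DKO only and 0 in HCT116 only. Of 66 RAD21 regions 7 were higher in DKO, against 13.7% of the table, and 4 in HCT116, against 8.7%, and the median M was -0.04 beside 0.14. These shares are near the background. Of 63 SMC1 regions 16 were higher in DKO, against 9.36%, and 1 in HCT116, against 4.67%, with a median of 0.47 beside 0.16.

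Among the other targets, TotalRNAPol2 stood farthest from its table. Of its 29 regions 27 passed 2-fold towards DKO, against 20.7%, and 0 towards HCT116, against 10.2%. With constant centring 22 passed 2-fold towards DKO, against 19605 of 162247 in the table. Less the median of all regions 23 did, against 22275. The median M was 1.76 beside 0.27, and 28 of the 29 regions were called in DKO only. Of 23 Pol2Ser5 regions 15 were higher in DKO, against 14.9%, and 1 in HCT116, against 21.0%, with a median of 1.25 beside 0.00. Of 107 H3K27Ac regions 3 were higher in DKO, against 11%, and 0 in HCT116, against 10.4%, and the median of 0.04 lay near the table's -0.05. Pol2Ser2 went both ways. Of its 38 regions 10 were higher in DKO, against 18.6%, and 8 in HCT116, against 10.9%, with a median of -0.53 beside 0.17. With constant centring the Pol2Ser2 counts became 3 and 13, against 28083 and 43305 of 236942 in the table. Less the median of all regions they became 5 and 11, against 34531 and 33529. Except for H3K27Ac, most regions of each target were called in 1 line only, a call that is not independent of M. The shares above are of all regions of a table, and shares among regions called in 1 line only were not computed. Among the 55 CTCF and cohesin regions called in both lines 11 were higher in DKO, against 4.8% of such regions in the tables. Among the 63 of the other targets 5 were, against 6.06%. Most of these 63 were H3K27Ac regions, 55 in number, of which 2 were higher in DKO, against 5.88%. Pol2Ser5 had 2 of 3, against 7.0%, Pol2Ser2 1 of 4, against 5.53%, and TotalRNAPol2 0 of 1, against 6.22%.

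The surroundings of the locus were compared with it in the same way. Among regions called in both lines within 1 Mb on either side, the median M was 0.48 for CTCF (129 regions), and between -0.18 for H3K27Ac and 0.10 for SMC1 for the other targets. CTCF was thus also higher in DKO around the locus. Less that median, M of CTCF over the control region was 0.75. The number of copies of chromosome 11 in each line was not tested.

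**Figure D4:**
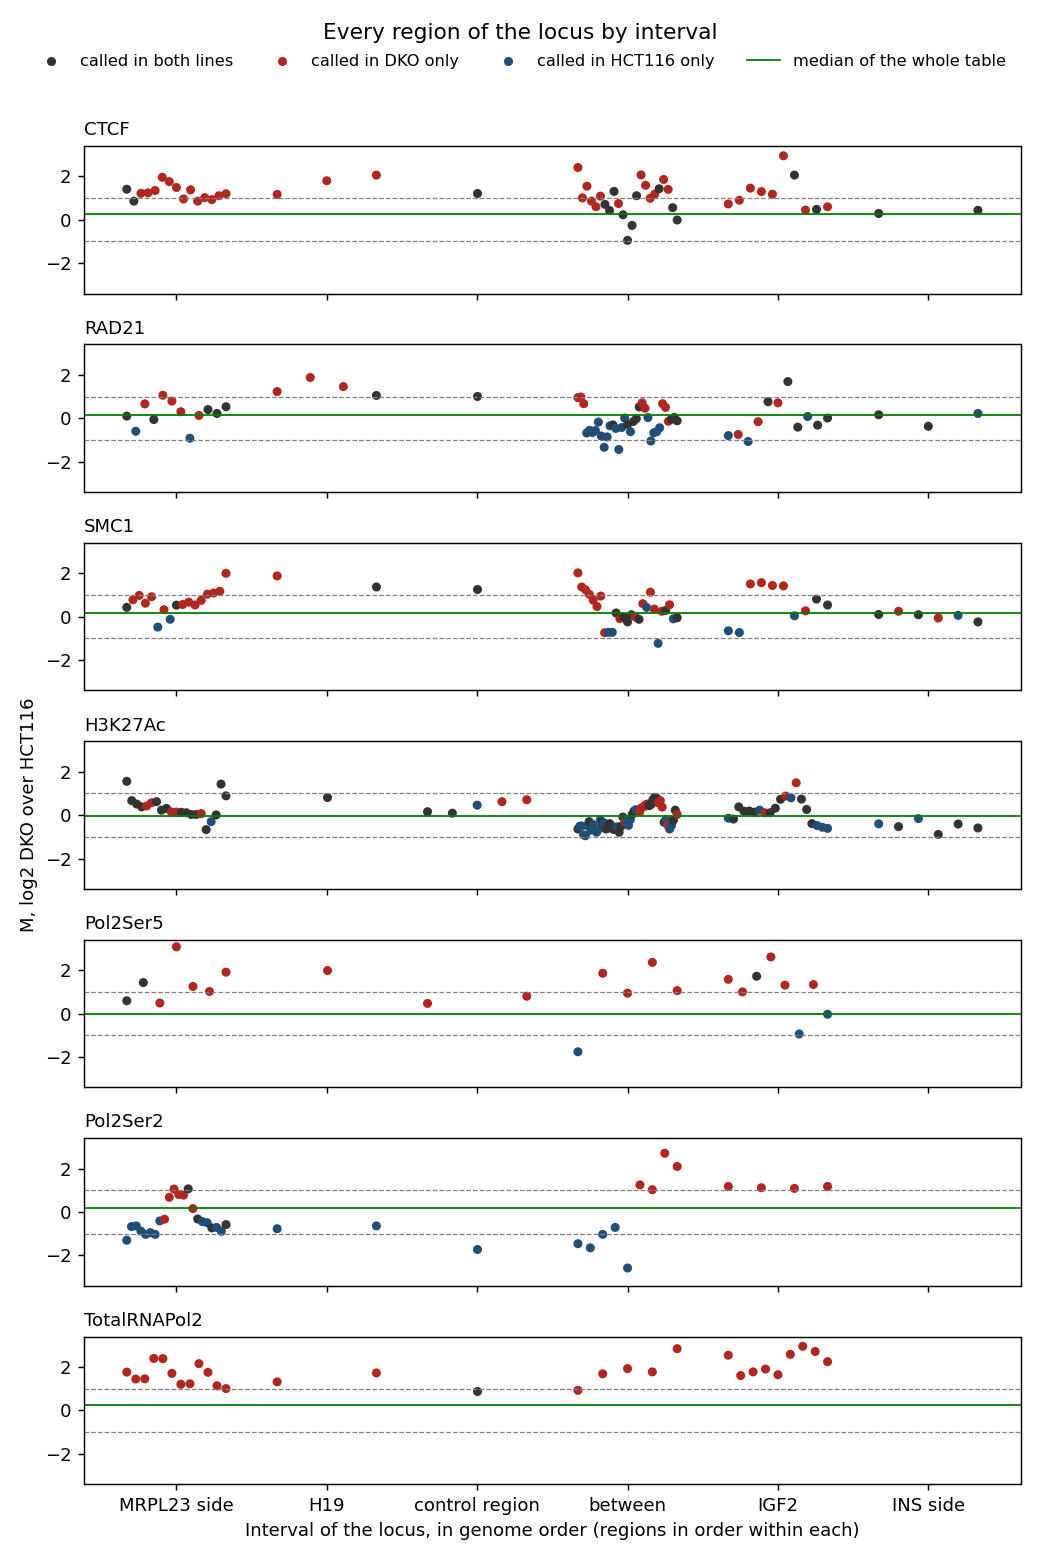
M (log2 DKO over HCT116, vertical) of all 380 regions by interval in genome order (horizontal), 1 point per region coloured by the line in which it was called, with the median of the whole table as a green line and dashed lines at 2-fold. All 29 TotalRNAPol2 points lie above 0, and the Pol2Ser2 points fall on either side.

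At 5 of the 30 CTCF regions that overlapped both cohesin subunits, all 3 of CTCF, RAD21 and SMC1 passed 2-fold towards DKO. These were the 3 CTCF regions over H19, which were matched to 2 RAD21 and 2 SMC1 regions, the control region, and chr11:2164636-2165956 in IGF2. At none of the 30 were all 3 at least 2-fold higher in HCT116, but the share of such places across the genome was not computed. Taken singly, 6.33% of CTCF, 8.7% of RAD21 and 4.67% of SMC1 regions were, so nothing is read from that absence. At 15 of the 30 all 3 had M above 0. Across the genome 5.59% of 76778 such CTCF regions had all 3 past 2-fold towards DKO, and 34.4% had all 3 above 0. With constant centring the count was still 5, against 5.84% across the genome, but the places changed. The control region left, since its M of RAD21 was 0.69. The CTCF region chr11:2026275-2026618 entered, with M of 1.12 for CTCF, 1.05 for RAD21 and 1.37 for SMC1. Less the median of all regions 3 were left, against 3.95%. At the first strong CTCF region of the MRPL23 side, chr11:1989033-1991330, CTCF was 494 in DKO and 186 in HCT116, with an M of 1.41 (interval 1.17 to 1.67), but M was 0.10 for RAD21 (162 and 152) and 0.43 for SMC1 (113 and 84.1). At chr11:2144379-2145703, in the intervening stretch, the 3 targets had M of -0.01, 0.04 and -0.05. The lowest CTCF value of the locus was at chr11:2094998-2096241, with 102 in DKO and 197 in HCT116 and an M of -0.95 (interval -1.32 to -0.61).

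On the MRPL23 side lay the highest Pol2Ser5 ratio of the locus. At chr11:2009343-2012752 the density was 121 in DKO and 14.4 in HCT116, from 317 and 21 reads, and M was 3.08 (interval 2.50 to 3.85). H3K27Ac there, at chr11:2008725-2013852, had 182 and 67.7 from 344 and 142 reads, with an M of 1.43 (interval 1.15 to 1.73). TotalRNAPol2, at chr11:2008929-2012612, had 134 and 30.1, with an M of 2.16 (interval 1.74 to 2.65). The highest DKO densities of the locus for these 3 targets were thus in this stretch and not over H19 or IGF2. RefSeq lists the noncoding genes MRPL23-AS1 and LINC01219 among the neighbours of H19, and which transcript these regions fall on was not determined. Towards DKO, CTCF passed 2-fold at 11 of 15 regions of this side, against 20.1% of its table, TotalRNAPol2 at 12 of 12, against 20.7%, and Pol2Ser5 at 5 of 7, against 14.9%. Called in DKO only were 13 of the 15, all 12 and 5 of the 7, and such a call is not independent of M. With constant centring the counts past 2-fold were 13, 7 and 4, against 41743 of 171693, 19605 of 162247 and 20451 of 149589 in the tables. Less the median of all regions they were 6, 8 and 5, against 23831, 22275 and 22461. The highest CTCF ratio of this side was at chr11:1999895-2000818, with 98.2 in DKO and 25.2 in HCT116 and an M of 1.96 (interval 1.35 to 2.73), where RAD21, at chr11:2000188-2000459, had 58.0 and 27.7 and an M of 1.06 (interval 0.40 to 1.86). The highest H3K27Ac ratio was at chr11:1987859-1991365, which crosses the edge of the window, with 170.0 and 57.6 and an M of 1.56 (interval 1.26 to 1.88). Pol2Ser2 was the form that did not follow. Of its 22 regions there, 2 passed 2-fold towards DKO, against 18.6% of its table, and 3 towards HCT116, against 10.9%, with a median M of -0.53. With constant centring these counts were 1 and 7, against 28083 and 43305 of 236942 in the table. The strongest, chr11:2002848-2005923, had 59.5 and 28.3 with an M of 1.07 (interval 0.62 to 1.57), and the lowest, chr11:1989684-1990227, had 16.1 and 39.5 with an M of -1.30 (interval -2.01 to -0.70).

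In the intervening stretch acetylation and RAD21 had M below 0 at more than the table's share of regions. Towards DKO, CTCF passed 2-fold at 12 of 23 regions, against 20.1% of its table. TotalRNAPol2 did at 4 of 5, against 20.7%, and Pol2Ser5 at 3 of 5, against 14.9%. Less the median of all regions, 8 of the 23 CTCF regions did, against 23831 of 171693 in the table. Pol2Ser2 passed 2-fold at 4 of 9 regions in each direction, against 18.6% towards DKO and 10.9% towards HCT116. M was below 0 at 35 of 54 H3K27Ac regions, against 53.3% of the table, and at 24 of 35 RAD21 regions, against 42.6%. None of the former passed 2-fold towards HCT116, against 10.4% of the table. Of the latter 3 did, which is near the 8.7% of the table. The lowest H3K27Ac value was -0.95 (interval -1.40 to -0.53) at chr11:2035255-2035884, with 35.7 in DKO and 68.9 in HCT116. RAD21 was lowest at chr11:2051615-2051966, with 21.5 and 58.2 and an M of -1.44 (interval -2.24 to -0.74). SMC1 was lowest at chr11:2114487-2114651, with 25.2 and 59.0 and an M of -1.23 (interval -1.98 to -0.56). Close to the control region SMC1 was instead higher in DKO, with 58.6 and 14.4 and an M of 2.02 (interval 1.21 to 3.14) at chr11:2024952-2025418. A cluster of regions higher in DKO lay from 2118408 to 2122108. TotalRNAPol2 at chr11:2121464-2122108, 100.2 kb from the CTCF summit of the control region, had 58.9 in DKO and 8.15 in HCT116, from 119 and 15 reads, with an M of 2.85 (interval 2.15 to 3.81). Pol2Ser5 at chr11:2120875-2122210 had 49.8 and 9.71, with an M of 2.36 (interval 1.65 to 3.36). The 5 CTCF regions of the cluster had M from 0.99 to 2.07, and the 5 H3K27Ac regions from 0.44 to 0.82. RAD21 had M of -0.62 (interval -1.30 to 0.04) and -0.44 (interval -1.10 to 0.22) at its 2 regions there, and SMC1 had 0.25 and 0.29. CTCF and polymerase were also higher in DKO at a place nearer the control region. CTCF at chr11:2109361-2110784 had 147 in DKO and 68.1 in HCT116, with an M of 1.11 (interval 0.69 to 1.56). Pol2Ser5 at chr11:2110104-2111229 had 47.0 and 13.0, with an M of 1.86 (interval 1.21 to 2.70). TotalRNAPol2 at chr11:2110330-2111214 had 51.3 and 15.9, with an M of 1.69 (interval 1.12 to 2.37). H3K27Ac at chr11:2110177-2110703 had an M of -0.47 (interval -0.98 to 0.00). RAD21 at chr11:2110146-2110598 had an M of 0.46 (interval -0.19 to 1.19). The signs of these 2 values were opposite to those in the cluster. For RAD21 the intervals at both places crossed 0, and that of H3K27Ac here reached 0, so no reversal is read from them. The only Pol2Ser5 region of the locus at least 2-fold higher in HCT116 was also in this stretch, at chr11:2042778-2042957, with 4.71 in DKO and 15.9 in HCT116 and an M of -1.76 (interval -3.00 to -0.74).

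The window's edges were drawn by position, and values on either side of them were as follows. Just outside it at the H19 end, M was 1.68 for CTCF, 1.03 for H3K27Ac, -0.18 for Pol2Ser5 and 0.87 for TotalRNAPol2, against 1.41, 1.56, 0.59 and 1.77 at the last regions inside. Just outside at the IGF2 end, M was 0.93 for CTCF, -0.72 for H3K27Ac and 2.29 for TotalRNAPol2, against 0.44, -0.59 and 2.25 at the last regions inside, the last of which ended at 2165631. For Pol2Ser5 the nearest regions lay far from that edge, at chr11:2166264-2166552 inside with -0.03 and at chr11:2187304-2188988 outside with 3.18.

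Regions across the genome were ranked by how near their ratios lay to those of the locus. A nearest region always exists, and no distance was set as a limit for likeness. Of 42433 CTCF regions that overlapped RAD21, SMC1 and H3K27Ac, the nearest to the control region by Euclidean distance over the 4 M values was chr7:75517895-75518392, at a distance of 0.154, with M of 1.26, 0.91, 1.18 and 0.13. The next were chr1:205423929-205424589 and chr3:52543509-52544861. Their CTCF densities in DKO, 73.2, 101 and 219, were below the 1075 of the control region. For H19, of 34271 H3K27Ac regions that overlapped the 3 polymerase targets, the nearest was chr19:49241119-49242068 at a distance of 0.352, with M of 0.90 for H3K27Ac, 2.20 for Pol2Ser5, -0.66 for Pol2Ser2 and 1.46 for TotalRNAPol2. For IGF2, of 48656 regions over 3 targets without Pol2Ser2, the nearest outside the locus was chr16:55866646-55867039, with M of 0.14 for H3K27Ac, 1.73 for Pol2Ser5 and 1.64 for TotalRNAPol2.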

How the data were processed

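Chromatin immunoprecipitation libraries of HCT116 and DKO were compared for 7 targets, with 1 library per line and target; the 2 input libraries were not used here. The submitters' processing notes name BWA, hg19 and, except for TotalRNAPol2, MACS2; no source used here gives their versions. Every row of a table is a region with the line or lines it was called in, per the file headers. The read signal columns hold densities normalized by the authors. M and A, the log2 ratio and the mean log2 density, were deposited by the authors. The p-value per region is the authors' deposited one and was used only in 1 alternative filter.

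Reads were recovered from M and A: for whole counts with 1 added to each, the log2 ratio less M followed a straight line in A. Values were whole within 0.05 in 100.0% of cases, for counting windows of 1 kb (CTCF, RAD21, SMC1) or 2 kb (the others). The slope of that line was 0.33 in the Pol2Ser2 table, 0.32 in the TotalRNAPol2 table and from -0.13 to 0.06 elsewhere, so in the first 2 the scaling changed with the level. Median depth per region went from 24 (Pol2Ser2) to 78 reads (H3K27Ac) in DKO and from 23 (Pol2Ser5) to 94 (H3K27Ac) in HCT116. Exact Clopper-Pearson intervals at 95% were computed for M from the recovered reads; they cover counting error only, since PCR reads are not independent molecules. Recovery and intervals were tested on simulated data. No level was compared between tables, which were normalized separately. Python 3.11.15, numpy 2.4.6, pandas 2.3.3 and scipy 1.17.1 were used.

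A region was counted as higher at M of 1 or more, or -1 or less. The region with the highest A stood for an interval. Every region of H19, the control region and IGF2 could be named; elsewhere the highest and lowest M per table among regions at or above the table's median density, places where CTCF and both cohesin subunits overlapped, and the 5 nearest regions by M. The weak Pol2Ser5 region that was higher in HCT116 and the strong Pol2Ser2 region of the MRPL23 side were chosen after their values were seen. So were the second Pol2Ser2 region past the end of IGF2 and the regions beside the strongest Pol2Ser5 ratio. The cluster of the intervening stretch and the place nearer the control region were also chosen after their values were seen. The members and lists were chosen with earlier results of these data known. Lists of genes for insulin-like growth factor signalling, imprinted genes and cell markers were not analysed here, since no gene positions of hg19 were used.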

Additional observations from a re-analysis of the deposited data

How the results depend on the processing

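The leading regions of CTCF and cohesin at the control region, and of acetylation and polymerase at H19 and IGF2, kept the sign of M under the alternatives run for them. Counting these values and the counts below, 94 of 115 recomputed values kept within their limits. Where an interval had 1 region, its median and the filters could only return that region or none. That held for CTCF and cohesin at the control region and for H3K27Ac and Pol2Ser5 at H19. Such values are among the 94, so the tally is not a measure of robustness. Taking the leading region by its summit, chosen after seeing the data, changed Pol2Ser5 over H19 from 2.00 to 1.91 and no other value. For CTCF over the control region, M of 1.23 became 1.00 with constant centring, 0.97 less the median of all regions, 0.92 less that of chromosome 11 and 0.75 less that of 1 Mb on either side, the last alternative chosen after seeing the data. For RAD21 there, 1.04 became 0.69 with constant centring. For TotalRNAPol2 over IGF2, 1.65 became 2.25 as the median of its regions. The count of CTCF and cohesin regions higher in DKO, 55, became 86 at 1.5-fold, 6 at 4-fold, 36 less the median of all regions and 11 among regions called in both lines. The count higher in HCT116, 5, became 22 at 1.5-fold, 0 at 4-fold, 3 with constant centring and 0 among regions called in both lines. For acetylation and polymerase, the 55 regions higher in DKO became 14 at 4-fold and 5 among regions called in both lines. The 9 higher in HCT116 became 36 at 1.5-fold, 1 at 4-fold, 15 with constant centring, 4 at or above the table's median density and 0 among regions called in both lines. Stricter fold limits and filters keep fewer regions by construction; for the scalings the cause was not tested. No region was left under the deposited p-value filter for H3K27Ac over IGF2 and Pol2Ser2 over both genes, nor among regions called in both lines for Pol2Ser5 over H19 and for Pol2Ser2 and TotalRNAPol2 over both genes. The median depth per region was lowest in the Pol2Ser5 library of HCT116, at 23 reads. No paired analysis was possible because each line had 1 library per target.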
